A study of Mus musculus with 14 samples.

Results

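Apoe, Lpl, Abca1, Abcg1, Pltp, Plin2, Nr1h3, Soat1 and Msr1 are 9 genes by which macrophages and microglia take up, store, esterify and export lipid. They were taken by symbol from a table of 14084 genes, and all 9 were found. All 9 passed the filter on low counts, and the lowest count of any of them in any library was 73. The counts come from RNA of microglia, the resident macrophages of the brain, sorted from the cerebral cortex of C57BL/6 mice labelled 8 to 10 weeks of age. The groups were days 1, 3, 7, 21, 60 and 90 after a stroke and a sham group, with 2 libraries in each and 14 in all. Stroke mice had the distal middle cerebral artery tied off for good and both common carotid arteries closed for 7 min, and sham mice had a lesion of the skull surface alone. Neither the sort gate, the sampling day of the sham mice nor the side of the cortex is stated in the labels. Whether both libraries of a group are from different mice is not stated either. The p-values therefore only set group differences against the spread between these libraries, pooled over all groups, and that spread could be technical. In GENCODE M21 (build GRCm38) Apoe lies on chromosome 7, Lpl and Msr1 on 8, Abca1 and Plin2 on 4, Pltp and Nr1h3 on 2, Abcg1 on 17 and Soat1 on 1.

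Phagocytes that engulf dying cells and myelin receive large amounts of cholesterol and fatty acids, which are toxic unless stored or exported. Cholesterol is esterified and packed with triglyceride into droplets, or pumped out through transporters onto apolipoprotein particles. Oxidised sterols that build up in the cell activate the liver X receptors, nuclear receptors whose known target genes include Apoe, Abca1, Abcg1, Pltp and Lpl. In the injured brain Apoe and Lpl are also among the genes used to recognise microglia that react to damage and to myelin debris.

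The sham libraries stand apart and have to be read first, because every comparison with sham rests on the same 2 of them. Microglial markers (10 of 10 measured, none at 0 in any sham library) summed to 1107 to 19442 counts-per-million (CPM) of the total in the 12 stroke libraries and to 487 to 840 CPM in sham. Neutrophil markers (10 of 10) summed to 239 to 5855 CPM in stroke libraries and to 13026 to 27723 CPM in sham. Monocyte markers (8 of 8) summed to 290.0 to 8238 CPM in stroke libraries and to 6755 to 15603 CPM in sham. Among stroke libraries, replicate 2 of day 1 had the lowest microglial sum, 1107 CPM, and the highest monocyte sum. Replicate 1 of day 21 had the highest neutrophil sum. In sorted bulk RNA fewer cells of a type and less RNA per cell cannot be told apart, and the part of this shift in cell markers in the differences from sham below was not tested. Total counts were 15254983 to 28758420 in the 7 libraries numbered replicate 1 and 100625099 to 191692779 in the 7 numbered replicate 2, and depth therefore cannot be told apart from replicate number. Levels below are CPM scaled by the trimmed mean of M values (TMM), with replicate 1 before replicate 2.

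**Figure D1:**
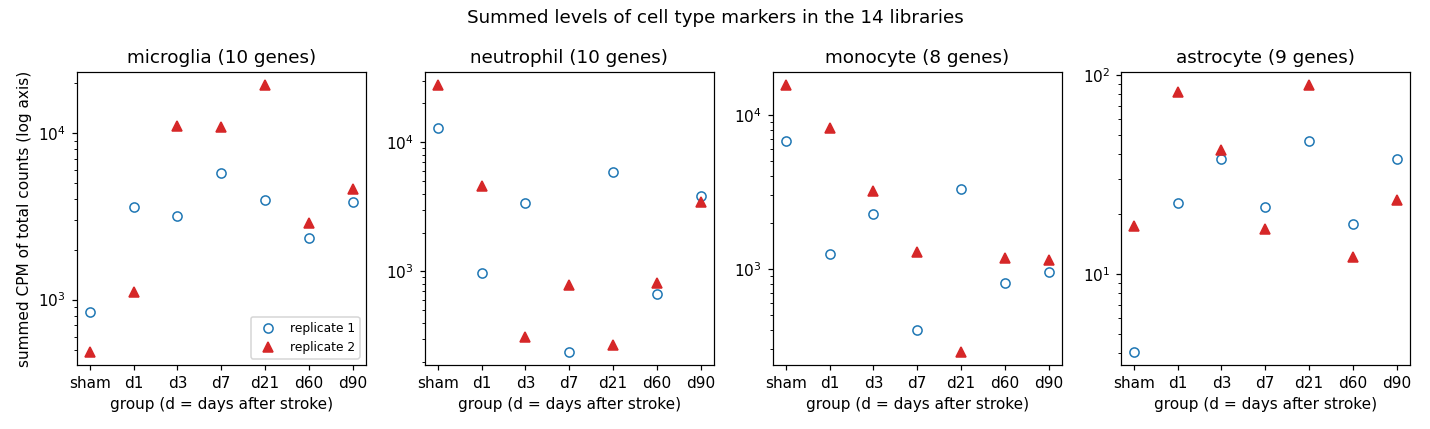
Summed CPM of total counts of microglial, neutrophil, monocyte and astrocyte markers (log axis) in sham and at each day after stroke, 1 symbol per library (circles for replicate 1, triangles for replicate 2). The sham libraries hold the highest neutrophil sums and the lowest microglial sums.

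Start sites are shown for the lipid droplet gene Plin2 and the cholesterol pump gene Abca1, the members whose calls against sham held at 3 or more times whichever library was left out. RefSeq promoter windows of build GRCm38.p6, 250 bases before to 50 bases after a start, were found for 6 of the 9 genes (9 windows: Apoe, Abca1, Pltp, Plin2, Nr1h3 and Soat1). The printed stretches run 260 bases from 250 bases before the start, on the minus strand, chr4:86670050-86670309 for Plin2 and chr4:53159886-53160145 for Abca1, with motif matches in capitals.
Plin2: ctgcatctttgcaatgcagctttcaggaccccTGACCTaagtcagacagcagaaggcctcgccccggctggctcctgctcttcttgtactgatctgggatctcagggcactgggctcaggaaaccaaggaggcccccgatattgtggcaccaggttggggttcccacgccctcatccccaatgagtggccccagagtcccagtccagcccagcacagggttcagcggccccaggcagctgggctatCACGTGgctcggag
Abca1: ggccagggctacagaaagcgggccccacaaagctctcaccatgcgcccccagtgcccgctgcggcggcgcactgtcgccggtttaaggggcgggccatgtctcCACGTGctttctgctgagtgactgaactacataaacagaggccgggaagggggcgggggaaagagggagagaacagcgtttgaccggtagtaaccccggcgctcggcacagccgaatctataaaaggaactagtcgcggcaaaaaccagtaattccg
Motifs were sought on both strands of the 300-base windows. They were AGGTCA, the core that many nuclear receptors bind, and 2 copies of AGGTCA spaced by 4 bases, the spacing known for liver X receptors. The others were CACGTG, an E-box, and TGAGTCA, an AP-1 site. AGGTCA was present in 16.3% of all 32851 windows and in 1 of the 9 windows of these genes, reading TGACCT at position -218 of Plin2, counted back from -1 just before the start. CACGTG was present in 7.15% of all windows and in 2 of the 9, at -147 in Abca1 and at -4 across the start of Plin2. TGAGTCA, in 5.2% of all windows, and the spaced pair, in 0.0152% of all windows and overlapping AGGTCA by construction, were in none of the 9. These are exact matches of letters and not tested binding sites. Copies that differ from a motif in any letter were not sought, so these counts do not show that a window lacks a receptor site. The printed Abca1 stretch holds such a pair: tgaccg and taaccc, inexact copies of TGACCT, stand spaced by 4 bases in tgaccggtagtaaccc. Whether it is bound was not tested, and other near copies may be present.

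Apoe was the most abundant of the 9 genes and stood above sham in all 12 stroke libraries. It encodes apolipoprotein E, the main carrier of lipid between cells of the brain. Apoe had 1550.0 and 1836 CPM in sham, 43109 and 2335 at day 1, 33571 and 13799.6 at day 3, 30267 and 59694 at day 7, 17968 and 109019 at day 21, 85014 and 91575 at day 60, and 36792 and 36391 at day 90. The libraries of days 60 and 90 lay within 1.08-fold of each other in each group, whereas those of day 1 differed 18.5-fold and those of day 21 6.07-fold. Replicate 2 of day 1, the library with the lowest microglial marker sum in CPM after stroke, held Apoe only just above sham. After stroke Apoe took up to 11.5% of all counts, in replicate 2 of day 21, and it was the top gene of the table in 5 of the 12 libraries. In sham it took 0.168 and 0.154% of all counts, and its ranks were 76 and 95.

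Apoe rose at day 7 (log2 fold change 4.73 ± 1.26 SE, edgeR adjusted p = 0.0314), day 21 (5.23 ± 1.29, adjusted p = 0.0367), day 60 (5.70 ± 1.32, adjusted p = 0.026) and day 90 (4.43 ± 1.24, adjusted p = 0.0496). At days 1 and 3 the edgeR adjusted p was 0.0994 and 0.0726, with log2 fold changes of 3.75 ± 1.20 and 3.81 ± 1.21, while DESeq2 called both, and edgeR called day 3 without any 1 library of days 1 or 21 (adjusted p of 0.0219 to 0.0391). Within replicate number 1 the day 1 change was 4.80 and within number 2 it was 0.35, each a single pair of libraries without a test. Without replicate 2 of day 1 the day 1 change was 4.67 (edgeR adjusted p = 0.0226), and without replicate 1 it was 0.47. Each of the 4 calls was lost without either sham library, those of days 7 and 60 also without either library of that day, and that of day 90 without any 1 library of days 3, 7, 60 or 90. The day 21 call was lost as well without any 1 library of days 7, 60 or 90, and without replicate 2 of day 21 the change was 3.41 (edgeR adjusted p = 0.178). Astrocytes, the other main source of Apoe in brain, showed marker sums (9 of 9 measured) of 12.1 to 89.0 CPM in stroke libraries and 4.06 to 17.5 CPM in sham.

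Pltp, phospholipid transfer protein, moves phospholipid between lipoprotein particles, and its highest values came at days 60 and 90. Pltp had 57.8 and 146 CPM in sham, 747 and 159 at day 1, 582 and 793 at day 3, 171 and 377 at day 7, 241 and 881 at day 21, 2417 and 6275 at day 60, and 1323 and 2977 at day 90. All 12 stroke libraries exceeded both sham libraries, and the 4 libraries of days 60 and 90 exceeded the other 10. Pltp rose 42.6-fold at day 60 (log2 5.41 ± 1.04, edgeR adjusted p = 0.012) and 21.0-fold at day 90 (4.40 ± 0.99, adjusted p = 0.0219), and both calls were lost without either sham library or without replicate 2 of that day. At days 1, 3, 7 and 21 its log2 fold changes were 2.15 ± 0.90, 2.75 ± 0.92, 1.43 ± 0.88 and 2.46 ± 0.91, with edgeR adjusted p of 0.188, 0.0843, 0.305 and 0.122. DESeq2 called days 3 and 21 (adjusted p = 0.0094 and 0.0218), as did edgeR without replicate 1 of day 21 (adjusted p = 0.0484 and 0.0382). Pltp shares 495 exon bases, 19.3% of its own, with the oppositely oriented gene Ctsa, and the strand setting of the counting is not known, so reads of the shared bases are uncertain. Ctsa, the lysosomal cathepsin A gene, had 2284 and 4182 CPM at day 60 and 881 and 1712 CPM in sham, and no comparison called it by edgeR (log2 1.32 ± 0.71 at day 60, adjusted p = 0.25).

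Lpl, lipoprotein lipase, splits triglyceride in lipoproteins to release fatty acids, and its libraries lay at 3 levels over time. Lpl had 104 and 126 CPM in sham, 141 and 119.9 at day 1, 86.5 and 121 at day 3, 847 and 1115 at day 7, 217 and 1381 at day 21, 4433 and 4621 at day 60, and 4356 and 5039 at day 90. The values of days 1 and 3 overlapped those of sham, those of days 7 and 21 lay above all of these, and those of days 60 and 90 lay highest. Lpl rose at day 7 (log2 3.09 ± 0.72, edgeR adjusted p = 0.0189), day 21 (2.80 ± 0.71, adjusted p = 0.04), day 60 (5.30 ± 0.80, adjusted p = 0.00388) and day 90 (5.35 ± 0.80, adjusted p = 0.0045). Its log2 fold changes at days 1 and 3 were 0.18 ± 0.66 and -0.14 ± 0.66. The 2 libraries of day 21 disagreed, and without replicate 2 the day 21 change was 0.92 (edgeR adjusted p = 0.407). The calls of days 7 and 21 were lost without either sham library or either library of day 7, and that of day 21 also without any 1 library of days 60 or 90. The call of day 60 was lost without sham replicate 1 (adjusted p = 0.0563) and that of day 90 without sham replicate 2 (adjusted p = 0.0531).

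Abca1, which loads cholesterol onto lipid-poor apolipoproteins, was high from day 1 onwards and stayed on a plateau. Abca1 had 11.5 and 4.12 CPM in sham, 182 and 146 at day 1, 212 and 269 at day 3, 329.6 and 172 at day 7, 206 and 350.4 at day 21, 311 and 191 at day 60, and 249 and 215 at day 90. The lowest stroke library lay 12.7-fold above the higher sham library. Abca1 rose at all 6 times, by between 21.1-fold at day 1 (log2 4.40 ± 0.63, edgeR adjusted p = 0.00366) and 35.7-fold at day 21 (5.16 ± 0.65, adjusted p = 0.0017). All 6 calls held in all 14 fits that left out 1 library, with edgeR adjusted p of at most 0.0488. Between neighbouring times its log2 fold changes ran from -0.15 to 0.55.

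Abcg1, which passes sterol to mature lipoprotein particles, had 70.9 and 24.6 CPM in sham, 141 and 19.9 at day 1, 105 and 73.6 at day 3, 127 and 77.7 at day 7, 156 and 194 at day 21, 183 and 221 at day 60, and 146 and 166 at day 90. Both libraries exceeded both sham libraries at every time but day 1, where replicate 2 lay lowest of all 14. In the fit to all libraries Abcg1 was called at no time by edgeR. Without either library of day 1 it was called at day 21 (1.88 and 1.87, edgeR adjusted p = 0.0479 in both fits) and day 60 (2.09 and 2.08, adjusted p = 0.0289 and 0.029). Its largest log2 fold change was 2.08 ± 0.76 at day 60 (edgeR adjusted p = 0.108), which DESeq2 called (adjusted p = 0.0426), and it was 0.75 ± 0.73 at day 1.

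**Figure D2:**
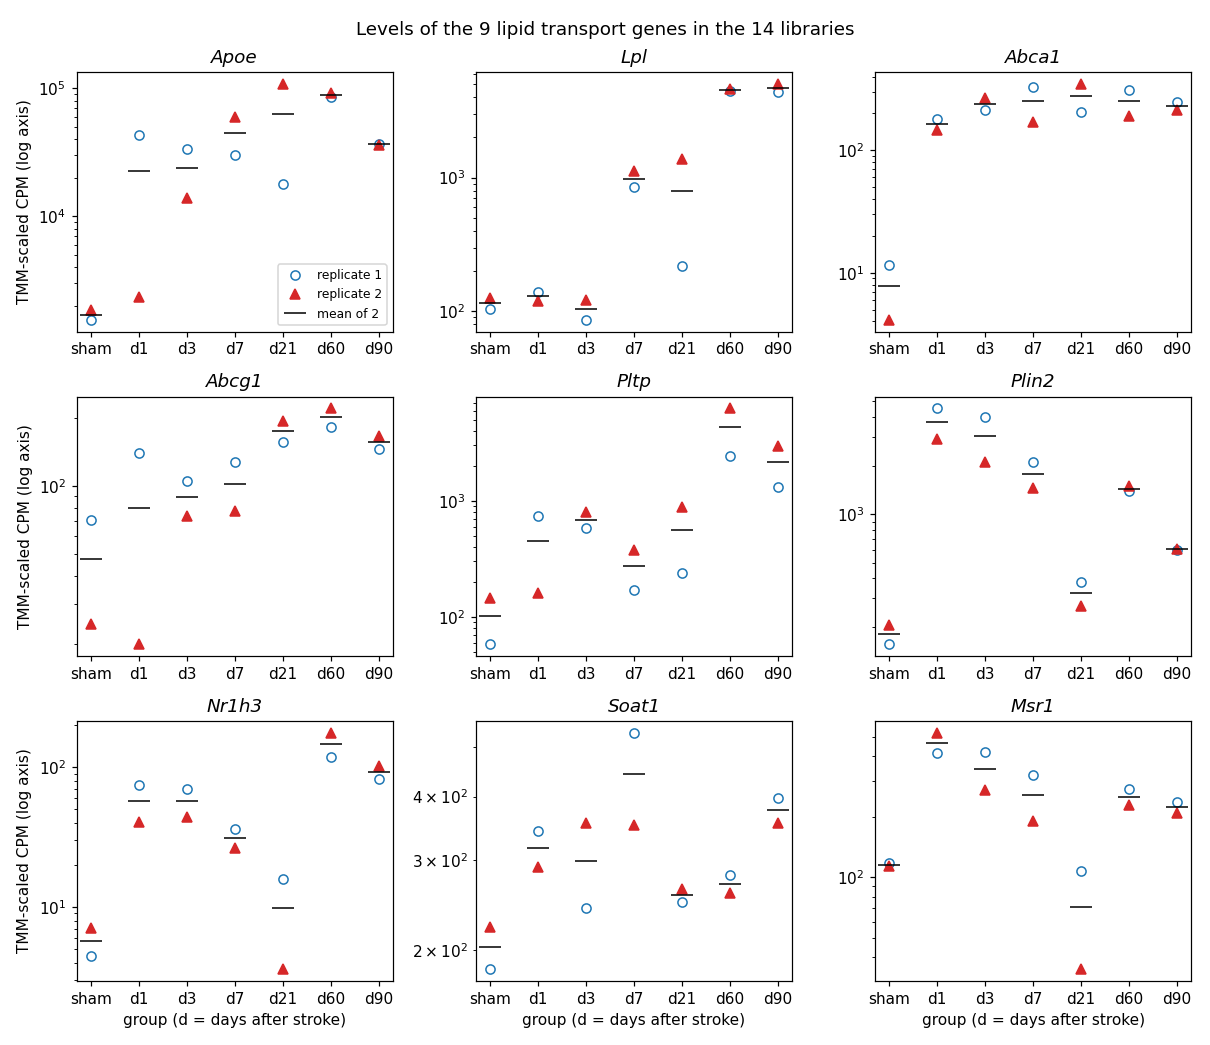
TMM-scaled CPM of each of the 9 genes (log axis) in sham and at each day after stroke, 1 symbol per library (circles for replicate 1, triangles for replicate 2) with the mean of the 2 as a bar. Lpl and Pltp are highest at days 60 and 90, Abca1 is on 1 plateau from day 1, and Plin2, Nr1h3 and Msr1 dip at day 21.

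Plin2, perilipin 2, coats lipid droplets, and its levels were highest in the first days. Plin2 had 156 and 204 CPM in sham, 4526 and 2942 at day 1, 4003 and 2116 at day 3, 2110.1 and 1456 at day 7, 377 and 268 at day 21, 1382 and 1488 at day 60, and 600.1 and 608 at day 90. All 12 stroke libraries exceeded both sham libraries, with the highest at days 1 and 3 and the lowest at day 21. Plin2 rose 20.7-fold at day 1 (log2 4.37 ± 0.56, edgeR adjusted p = 0.00223), 17.0-fold at day 3 (4.09 ± 0.55, adjusted p = 0.00216), 9.90-fold at day 7 (3.31 ± 0.53, adjusted p = 0.00425) and 7.97-fold at day 60 (2.99 ± 0.52, adjusted p = 0.00709). The calls of days 1, 3 and 7 held in all 14 fits that left out 1 library, and that of day 60 was lost without either sham library. At day 21 the change was 0.84 ± 0.49 (edgeR adjusted p = 0.306), and at day 90 it was 1.75 ± 0.50 (adjusted p = 0.0527), which DESeq2 called (adjusted p = 0.00288), as did edgeR without any 1 library of days 1, 3 or 21 (adjusted p of 0.0272 to 0.0452).

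Soat1, the enzyme that esterifies cholesterol for storage, varied least over the 14 libraries. Soat1 had 184 and 222 CPM in sham, 343 and 292 at day 1, 243 and 355 at day 3, 532 and 351 at day 7, 249 and 264 at day 21, 281 and 259 at day 60, and 398 and 355 at day 90. All 12 stroke libraries exceeded both sham libraries, but the log2 fold changes lay between 0.34 and 1.12 and edgeR called none. The largest, 1.12 ± 0.40 at day 7, had an edgeR adjusted p of 0.0862 and was called by DESeq2 (adjusted p = 0.0393).

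Nr1h3 encodes liver X receptor alpha, the nuclear receptor that senses oxidised sterols. Nr1h3 had 4.43 and 7.09 CPM in sham, 75.4 and 40.4 at day 1, 70.6 and 43.9 at day 3, 36.0 and 26.5 at day 7, 16.0 and 3.60 at day 21, 119 and 176 at day 60, and 82.5 and 103 at day 90. Both libraries exceeded both sham libraries at every time but day 21, when replicate 2 lay below them. Nr1h3 rose 10.0-fold at day 1 (log2 3.32 ± 0.67, edgeR adjusted p = 0.0183), 9.89-fold at day 3 (3.31 ± 0.67, adjusted p = 0.014), 5.41-fold at day 7 (2.43 ± 0.65, adjusted p = 0.0316), 25.6-fold at day 60 (4.68 ± 0.72, adjusted p = 0.00405), and by 4.0 ± 0.70 on the log2 scale at day 90 (adjusted p = 0.00744). At day 21 it differed by 0.75 ± 0.62 (edgeR adjusted p = 0.477), and by -0.65 without replicate 1 of that day. Without sham replicate 1 all 5 calls were lost, and without sham replicate 2 those of days 1, 3, 7 and 90. The call of day 1 was also lost without replicate 1 of that day, that of day 3 without replicate 1 of that day, and that of day 7 without either library of that day.

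Msr1, a class A scavenger receptor that takes up modified lipoproteins, had 117 and 114 CPM in sham, 414 and 521 at day 1, 419.9 and 272 at day 3, 321 and 190.0 at day 7, 107 and 34.8 at day 21, 275 and 228 at day 60, and 237 and 209 at day 90. Both libraries exceeded sham at 5 times and both lay below it at day 21. Msr1 was called at no time by edgeR, with log2 fold changes of 2.02 ± 0.54 at day 1 (adjusted p = 0.0558), 1.58 ± 0.53 at day 3 (adjusted p = 0.0863) and -0.70 ± 0.52 at day 21 (adjusted p = 0.429). DESeq2 called days 1 and 3 (adjusted p = 0.00551 and 0.0339). Without either library of day 21, or without both, edgeR called them too (adjusted p = 0.0182 at day 1 and 0.0327 at day 3 without both). Border-associated macrophages also transcribe Msr1 and Apoe. Their markers (8 of 8 measured) summed to 225 to 724 CPM at day 21, 225 to 2316 CPM over all 12 stroke libraries and 690 to 1441 CPM in sham. The sum without F13a1 (7 of 8, a split made after the values were seen) went the other way at day 21. It was 150 to 191 CPM at day 21, 457 to 1988 CPM at the other times after stroke and 29.6 to 35.2 CPM in sham. F13a1, which is also transcribed in monocytes, lay between 34.3 and 574 CPM at day 21, against 654 to 1411 in sham. Of the 8 markers 2 were called higher and 0 lower at day 21 against sham by edgeR, and their part in the values of Msr1 was not tested.

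**Figure D3:**
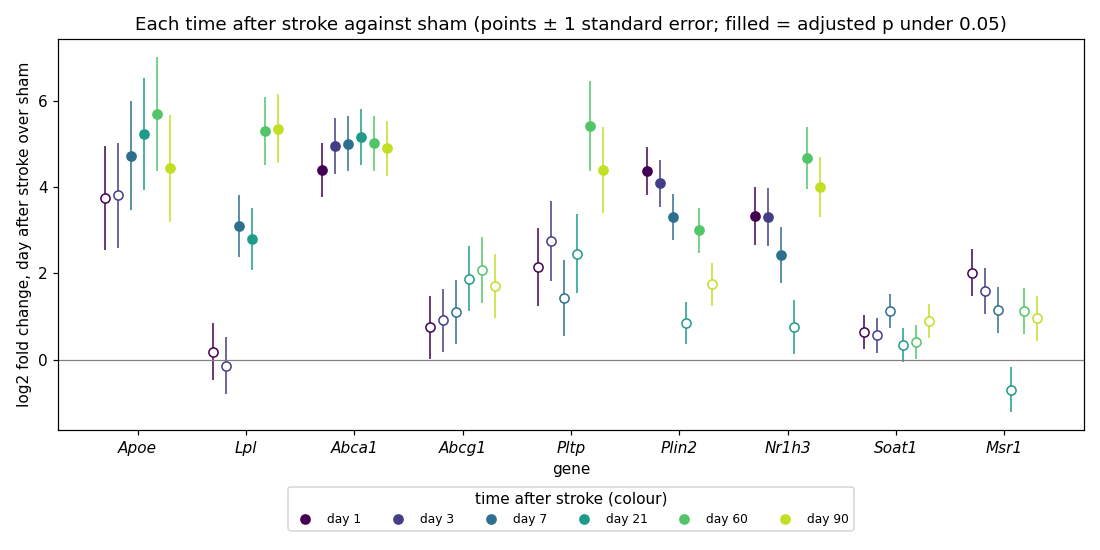
Log2 fold change of each gene at each day after stroke over sham, with 1 standard error, from the edgeR fit over all 14 libraries. Filled points have an adjusted p under 0.05, which Abca1 reached at all 6 times and Abcg1, Soat1 and Msr1 at none.

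Counted together, the genes called higher than sham by edgeR numbered 3 of 9 on day 1 (3.18% of all 13861 tested genes were called higher), 3 on day 3 (5.2%), 5 on day 7 (7%), 3 on day 21 (5%), 6 on day 60 (4.96%) and 5 on day 90 (5.12%), and none was called lower. The median log2 fold change of the 9 genes over those 6 times was 2.15, 2.75, 2.43, 1.87, 4.68 and 4.0, beside 0.04, 0.15, 0.06, 0.06, 0.14 and 0.11 over all genes tested. Both libraries lay above both sham libraries for 7 of the 9 genes on day 1 (22.2% of all genes), 8 on day 3 (28.9%), 9 on day 7 (32.1%), 7 on day 21 (27.5%), 9 on day 60 (33.9%) and 9 on day 90 (36.4%). Without either sham library the counts of members called by edgeR were lower at every time. Calls over the whole table also varied with 1 library left out, and their ranges are given below. The counts that follow are edgeR calls too. Without either library of day 7 the day 7 count was 2. The day 21 count was 1 without any 1 library of day 7, 60 or 90 or without replicate 2 of day 21. Without replicate 2 of day 90 the day 90 count was 3, and the day 3 count was 6 or 5 without replicate 1 or 2 of day 21. All 12 stroke libraries lay above both sham libraries for 5 genes (Apoe, Abca1, Pltp, Plin2 and Soat1), as they did for 10.3% of all genes. Tested jointly over the 7 groups, 5 genes differed by edgeR (Abca1, Lpl, Nr1h3, Plin2 and Pltp), against 7.21% of all genes, and 3 or 2 did without sham replicate 1 or 2.

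The comparison of days 60 and 90 with days 1 and 3 takes no sham mean and set Lpl and Plin2 in opposite directions. Both sham libraries still entered the fit behind it, through the filter, the scaling and the shared spread. Lpl rose 39.6-fold (log2 5.31 ± 0.56, edgeR adjusted p = 0.000552), with 4356 to 5039 CPM in the 4 late libraries and 86.5 to 141 CPM in the 4 early ones. The change was 5.32 within replicate number 1 and 5.32 within number 2, and the call held in all 14 fits that left out 1 library and with both sham libraries left out (adjusted p = 0.00147). Plin2 fell 3.63-fold (log2 -1.86 ± 0.35, edgeR adjusted p = 0.0165), with 600.1 to 1488 CPM in the late libraries and 2116 to 4526 CPM in the early ones. It fell within both replicate numbers (-2.22 and -1.39), and its call was lost without replicate 1 of day 3 (adjusted p = 0.0671) or without any 1 library of days 60 and 90 (adjusted p up to 0.104). These were 1 of the 9 genes in each direction, where 1.77% of all tested genes were called higher and 0.844% lower.

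Pltp (2.45 ± 0.64, edgeR adjusted p = 0.0694), Nr1h3 (1.02 ± 0.44, adjusted p = 0.265) and Abcg1 (1.07 ± 0.52, adjusted p = 0.343) did not pass, although all 4 late libraries lay above all 4 early ones for each. That separation held for Lpl, Abcg1, Pltp and Nr1h3 among the 9 genes and for 8.77% of all genes, and the opposite one for Plin2 and 4.52% of all genes. Pltp was called by DESeq2 (adjusted p = 0.000956), without replicate 1 of day 1 (3.21, edgeR adjusted p = 0.0387) and without either library of day 21 (edgeR adjusted p = 0.0331 and 0.0369). Abcg1 was called without replicate 1 of day 1 (adjusted p = 0.0285). The log2 differences of Apoe, Abca1, Soat1 and Msr1 were 1.29 ± 0.78, 0.28 ± 0.38, 0.05 ± 0.28 and -0.76 ± 0.37, with edgeR adjusted p of at least 0.339. Over the same comparison microglial markers summed to 2352 to 4602 CPM in late libraries and 1107 to 11024 CPM in early ones, and monocyte markers to 814 to 1169 CPM in late and 1240.0 to 8238 CPM in early ones. Their part in these differences was not tested. B cell markers (7 of 7 measured) summed to 163 to 292 CPM in late libraries and 7.56 to 22.5 CPM in early ones, and 6 of the 7 were called higher by edgeR. T and NK cell markers (7 of 8 measured) summed to 155 to 342 CPM in late libraries and 26.7 to 41.9 CPM in early ones, and 6 of the 7 were called higher. Endothelial and mural markers (7 of 7) summed to 1363 and 1147 CPM in replicate 2 of days 60 and 90, to 20.8 and 31.0 CPM in replicate 1 of those days and to 17.7 to 85.2 CPM in early libraries. Most of the 2 high sums was Pdgfrb (1352 and 1124 CPM), and edgeR called none of the 7. The part of these cell types was not tested either.

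**Figure D4:**
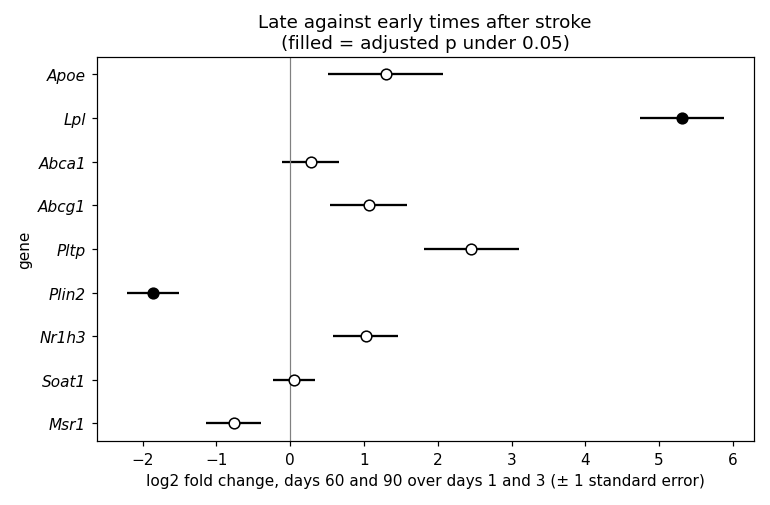
Log2 fold change of each gene at days 60 and 90 over days 1 and 3, with 1 standard error, from the edgeR fit over all 14 libraries. The filled points, Lpl at 5.31 and Plin2 at -1.86, have an adjusted p under 0.05.

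Between neighbouring times no member was called by edgeR, and almost no other gene was (0% of tested genes for day 3 against 1, 0.00721% for day 7 against 3, 0% for day 21 against 7, 0.0216% for day 60 against 21 and 0% for day 90 against 60). At an unadjusted edgeR p under 0.05 the members counted 0, 1, 3, 5 and 1 in that order, and DESeq2 called 0, 1, 2, 5 and 0. How many of all genes passed that unadjusted p was not counted, so these member counts have no background and only describe. The DESeq2 counts over the whole table are given below, with the dependence on processing. The member of day 7 against day 3 was Lpl (3.24 ± 0.72, edgeR adjusted p = 0.402), with 847 and 1115 CPM at day 7 and 86.5 and 121 CPM at day 3, called by DESeq2 (adjusted p = 0.000534). Those of day 21 against day 7 were Plin2 (-2.47 ± 0.51, edgeR adjusted p = 0.187), Msr1 (-1.85 ± 0.54, adjusted p = 0.356) and Nr1h3 (-1.68 ± 0.63, adjusted p = 0.44). DESeq2 called Plin2 (adjusted p = 5.51e-05) and Msr1 (adjusted p = 0.0404) there. At day 60 against day 21 Plin2, Msr1 and Nr1h3 differed by 2.15 ± 0.51, 1.82 ± 0.54 and 3.93 ± 0.69, with edgeR adjusted p of 0.266, 0.347 and 0.174, and Lpl and Pltp by 2.5 ± 0.70 and 2.95 ± 0.93 (adjusted p = 0.321 and 0.363). DESeq2 called these 5 genes. Leaving out replicate 1 of day 21 gave 2 edgeR calls, Msr1 and Nr1h3, in each of the 2 comparisons with day 21, and leaving out either library of day 21 gave 1 call, Lpl, at day 7 against day 3.

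Levels were also set per kilobase of exon, over the union of all exons in GENCODE M21 models of a gene (build GRCm38). That union, 10478 bases for Lpl, can be longer than the transcript expressed, so levels compare between genes only roughly. The mean over the 14 libraries was 18807 CPM per kilobase for Apoe, 478 for Pltp, 452 for Plin2 and 155 for Lpl. It was 39.0 for Msr1, 31.6 for Soat1, 22.9 for Nr1h3, 19.6 for Abca1 and 16.7 for Abcg1. On this scale Apoe exceeded Pltp, the next gene, 39.3-fold, and in 14 of 14 libraries it was the highest of the 9. Groups next to each other in mean level often overlapped: for Abca1, in rising order of the mean, days 90, 3, 7, 60 and 21 each overlapped the next, and for Apoe days 90, 7, 21 and 60 did. The Abca1 libraries of day 1 (182 and 146 CPM) overlapped those of day 7 (329.6 and 172 CPM) but no other time, and sham lay below all. Among the 9 genes, as a description of libraries that share a split in depth, the highest r of log2 CPM over the 12 stroke libraries were 0.87 for Plin2 with Msr1 and 0.86 for Apoe with Abcg1, and the lowest was -0.53 for Lpl with Plin2.

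The genes most like each member were taken by Pearson r of log2 CPM over the 14 libraries, among genes with a mean of at least 3 log2 CPM. They are a description, since all members share the depth split and the sham pair. For Apoe they were Tfpi (0.96), Fam3c (0.96) and Tmem106c (0.95), for Lpl Dnmt3a (0.95), Enox2 (0.94) and Mfge8 (0.94), and for Plin2 Ccl7 (0.97), Gcsh (0.97) and Eif2s1 (0.96). For Pltp they were Tpra1 (0.94), Ctsk (0.93) and Fcgrt (0.92), for Nr1h3 Exosc2 (0.95), Lgals3 (0.94) and Cyb5r3 (0.92), and for Msr1 Aifm2 (0.92), F7 (0.92) and Gm6377 (0.88). For Abcg1 they were Rnf135 (0.89), Fut11 (0.89) and Sepp1 (0.87), and for Soat1 Ipo5 (0.91), Zmpste24 (0.90) and Mcm6 (0.89). For Abca1 they were Cttnbp2nl (0.99), Arhgap22 (0.98) and Fmn1 (0.98), which over the 12 stroke libraries alone were 0.71, 0.62 and 0.64.

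A wider list of 49 further lipid handling genes, 47 of them measured and tested, held 5 genes called higher than sham by edgeR on day 1 (3.18% of all tested genes were called higher), 7 on day 3 (5.2%), 8 on day 7 (7%), 1 on day 21 (5%), 8 on day 60 (4.96%) and 5 on day 90 (5.12%). Called lower were 2 on day 1 (1.37% of all tested genes were called lower), 2 on day 3 (3.07%), 5 on day 7 (5.63%), 2 on day 21 (1.44%), 3 on day 60 (2.89%) and 2 on day 90 (2.73%). Its median log2 fold change over those times was 0.08, 0.56, 0.53, 0.38, 0.72 and 0.38. The scavenger receptor gene Stab1, which takes up modified lipoproteins, was called at all 6 times, by between 17.2-fold at day 60 and 92.2-fold at day 7. Nceh1, which frees cholesterol from its esters, rose at every time but day 21, among them day 7 (3.20 ± 0.76, edgeR adjusted p = 0.0201). The lipoprotein lipase inhibitor gene Angptl4 rose at days 1, 3, 7 and 60, with 89.9 and 10.3 CPM at day 1 and 0.00 and 0.974 CPM in sham. Olr1, a receptor for oxidised lipoproteins, rose at day 3 (2.51 ± 0.66, edgeR adjusted p = 0.0373) and Osbpl8, a lipid exchange protein gene, at day 7 (1.73 ± 0.47, adjusted p = 0.0328). Npc1, which moves cholesterol out of lysosomes, rose at days 1, 3 and 7, among them day 3 (2.90 ± 0.57, edgeR adjusted p = 0.0118).

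Hilpda, a hypoxia-induced droplet protein gene, rose at day 1 (5.31 ± 0.94, edgeR adjusted p = 0.0101) and day 3 (5.42 ± 0.94, adjusted p = 0.00696) and, like Plin2, was lower at days 60 and 90 than at days 1 and 3 (-3.61 ± 0.61, adjusted p = 0.00894). Acsl1, which activates fatty acids, fell at day 1 (-1.92 ± 0.46, edgeR adjusted p = 0.0369), day 3 (-2.11 ± 0.46, adjusted p = 0.0188) and day 60 (-2.02 ± 0.46, adjusted p = 0.0248). The triglyceride synthesis gene Dgat1 fell at days 7, 60 and 90, among them day 60 (-2.49 ± 0.65, edgeR adjusted p = 0.0394). G0s2, an inhibitor of droplet lipolysis, fell at day 7 (-6.71 ± 1.47, edgeR adjusted p = 0.0171), with 1.26 and 6.88 CPM at day 7 and 385 and 476 CPM in sham. Neutrophil marker sums lay between 239 and 781 CPM at day 7, against 13026 to 27723 in sham, and their part in the lower genes was not tested.

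The fatty acid receptor gene Cd36 and the lipid-sensing receptor gene Pparg fell at day 21 (-2.42 ± 0.58, edgeR adjusted p = 0.0315, and -2.26 ± 0.44, adjusted p = 0.0141). Both rose at days 60 and 90, among them Cd36 at day 90 (3.20 ± 0.60, edgeR adjusted p = 0.01), and Cd36 also at day 7. Cd36 had 85.8 and 143 CPM in sham, 321 and 454 at day 1, 306 and 114 at day 3, 808 and 467 at day 7, 15.1 and 27.5 at day 21, 623 and 683 at day 60, and 1006 and 1102 at day 90. Against day 21, day 60 was higher for Cd36 (4.94 ± 0.65, edgeR adjusted p = 0.0369) and Pparg (4.32 ± 0.48, adjusted p = 0.016), which are 2 of the 3 genes called in the whole table. Pparg also rose at days 60 and 90 against days 1 and 3 (3.07 ± 0.32, edgeR adjusted p = 0.000549), as did Mgll, a lipase of monoglycerides (3.63 ± 0.70, adjusted p = 0.0178), and the transporter gene Abca9 (2.07 ± 0.49, adjusted p = 0.0479). Of the fatty acid carriers, Fabp4 (18.3-fold, edgeR adjusted p = 0.0415) and Fabp5 (33.6-fold, adjusted p = 0.0456) rose at day 60. The 2 libraries of day 60 disagreed for Fabp5, with a mean of 1293 CPM and a standard deviation of 1158. For Fabp4 these were 166 and 63.3 CPM. How calls of the wider list depend on single libraries is not given here. Lipa, the lysosomal acid lipase gene, rose at day 90 (2.53 ± 0.60, edgeR adjusted p = 0.0269). Its mean CPM was 184 in sham and 509, 455, 738, 240, 1033 and 1069 at days 1, 3, 7, 21, 60 and 90. Up to 2 called genes per role and comparison were named, so calls of a gene at other times may go unnamed.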

How the data were processed

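Libraries were grouped and numbered by their titles. The values are raw counts per gene that the authors deposited. The submitters' processing notes list Bowtie2 2.3.4.2, HTSeq 0.6.1 and build mm9. The annotation, and how counting treated strand and multiple alignments, are not stated in the labels, so reads of overlapping genes cannot be told apart.

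Counts were fitted in R 4.3.3 with edgeR 4.0.16 (filterByExpr, TMM, robust quasi-likelihood, 1 mean per group, 7 residual degrees of freedom). The code was first tried on simulated counts of smaller spread than these. That trial does not show how often calls in these data are right. The filter kept 13861 genes and removed 223. Calls in each of 13 comparisons took a Benjamini-Hochberg adjusted p below 0.05 across these. Standard errors (SE) are the log2 fold change over the square root of F, and log2 CPM used a prior count of 2. DESeq2 1.42.0, RLE and upper-quartile scaling, no filter, a replicate block and fits without single libraries or day 21 were alternatives, and a fit without sham was chosen after seeing the data.

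The 9 genes, the lipid list and the marker lists were chosen with earlier results of these data known. Of the lipid list, up to 2 called genes per role and comparison, by size of change, were named, with the 3 genes most like each member. Sequences are RefSeq's (GRCm38.p6). Among 50-base words of GENCODE M21 transcripts, the most a member shared with 1 other gene was 2.57%, of Plin2 with Gm12551.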

Additional observations from a re-analysis of the deposited data

Results flagged for a closer look

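The log2 fold change of Lpl at days 60 and 90 over days 1 and 3 was 5.31 (edgeR adjusted p = 0.000552), and that of Plin2 was -1.86 (adjusted p = 0.0165). Both stand out because the late and the early times after stroke differed from each other by a test of that difference. No group holds more than 2 libraries, so a single library that departs from its group could not be tested for.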

How the results depend on the processing

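Member changes against sham and of days 60 and 90 against days 1 and 3 were all followed here. Between neighbouring times only those with an unadjusted edgeR p under 0.05 were, so most small changes there are left out. Of 1462 such member log2 fold changes under alternatives with a test, 1329 kept their direction and side of the threshold, 60 newly passed it, 68 lost it and 5 reversed, all 5 among values not called and with 1 library left out. Over these fits the day 1 change of Abcg1 ran from -1.25 (without replicate 1 of day 1) to 1.69, the day 3 change of Lpl from -0.41 to 0.083 (without replicate 1 of day 3) and the day 21 change of Nr1h3 from -0.65 (without replicate 1 of day 21) to 1.47. That of Soat1 at days 60 and 90 against days 1 and 3 ran from -0.075 (without replicate 1 of day 3; -0.0079 without replicate 2 of day 1) to 0.20. The causes were not tested. Upper-quartile scaling moved the median of all genes against sham by 0.13, 0.15, 0.22, 0.10 and 0.20 log2 units at days 3, 7, 21, 60 and 90 and by -0.11 at day 60 against 21. It reversed no member and added the call of Plin2 at day 90.

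DESeq2 called 5 and 6 members at days 1 and 3 against sham, 1, 2 and 5 at day 7 against 3, day 21 against 7 and day 60 against 21, and 1848, 2639, 3172, 2461, 2653 and 2599 genes of the whole table against sham at days 1, 3, 7, 21, 60 and 90. Between neighbouring times it called 5, 115, 373, 347 and 21 genes, late against early 1170 and jointly 3501. Without both day 21 libraries edgeR called 5 members at day 3 against sham and 1 at day 7 against 3, and 1093, 1802, 1749 and 1796 genes at days 1, 3, 60 and 90 against sham, 5 at day 7 against 3 and 676 late against early. The edgeR counts of whole-table calls were 631, 1147, 1751, 892, 1088 and 1089 against sham, 0, 1, 0, 3 and 0 between neighbouring times, 363 late against early and 999 jointly.

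The replicate numbers were not taken to pair the libraries: of 21 pairs of groups, the correlation of same-numbered deviations lay between 0.071 and 0.677, over 0.1 in 20. Each group's deviations correlated positively with those of the same number elsewhere (0.363 to 0.728), a hint from the data. With the replicate block edgeR called Msr1 at days 1 and 3 against sham (adjusted p = 0.025 and 0.0472), Pltp at day 3 (adjusted p = 0.0436) and Plin2 at day 90 (adjusted p = 0.0281), 5 members at day 3 in all, and 1195, 2002, 2766, 1584, 1953 and 2006 genes against sham, 2 at day 21 against 7, 7 at day 60 against 21, 611 late against early and 1635 jointly.

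Leaving out 1 library at a time, members called against sham ranged over 2 to 4, 2 to 6, 2 to 5, 1 to 4, 1 to 7 and 1 to 6 at days 1, 3, 7, 21, 60 and 90. They ranged over 0 to 1 at day 7 against 3, 0 to 2 at day 21 against 7 and at day 60 against 21, 1 to 4 late against early and 2 to 6 jointly. Genes of the whole table ranged over 76 to 1098, 225 to 1815, 355 to 2457, 68 to 2410, 132 to 1750 and 129 to 1800 against sham, 0 to 6 at day 7 against 3, 0 to 259 at day 21 against 7, 0 to 360 at day 60 against 21, 119 to 695 late against early and 224 to 2185 jointly. With 1 library left in a group it was assumed to vary like the others. Members had at least 73 counts, the lowest being Nr1h3 in sham replicate 1. There counting error alone gave a 95% Wilson interval of 0.000381 to 0.000602% of all counts. The value in sham replicate 2, 0.000593%, lay inside it.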

Other observations

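Nr1h2, which encodes liver X receptor beta, was looked at after its values were seen beside those of Nr1h3. It had 127 and 129 CPM in sham, 100 and 160.0 at day 1, 101 and 122 at day 3, 91.5 and 112 at day 7, 114 and 74.6 at day 21, 97.8 and 125 at day 60, and 85.9 and 119 at day 90. No comparison called it by edgeR, and its log2 fold change against sham lay between -0.44 and 0.02.

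Apoc2, whose protein activates lipoprotein lipase, was also picked after its values were seen. It had 38.0 and 103 CPM in sham, 599 and 107 at day 1, 781 and 184 at day 3, 67.0 and 102 at day 7, 32.8 and 32.0 at day 21, 142 and 249.6 at day 60, and 25.8 and 33.6 at day 90. It differed over the 7 groups jointly (edgeR adjusted p = 0.0352), and days 60 and 90 against days 1 and 3 gave -2.44 (adjusted p = 0.0542), the direction of Plin2 and not of Lpl.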
